A study of Mus musculus with 4 samples.

Results

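The genes described here are 34 genes of glucose uptake, glycolysis, lactate handling and the response to low oxygen, taken from a fixed list of names and read in fibroblasts from mouse mammary tumours. All 34 were found among the 22456 genes of the authors' table, and all 34 passed the filter on low values, a mean of at least log2 of 10 (3.32), that 14548 genes passed. The hosts were Balb/cAnN mice, and the tumours grew from transplanted 4T1 cells, a Balb/c mammary carcinoma line, placed in the fat pad 8 days earlier. The cancer cells had been cultured for 5 days in the solvent DMSO or in 5 µM of the compound GSK269962A. Both groups, DMSO and GSK, hold 2 libraries. The compound was given to the cancer cells before transplantation, so the fibroblasts are host cells of tumours that grew from treated or untreated cells. The fraction sequenced is what was left after beads had removed cells with CD45, CD31, CD326 or human CD2, and it can hold any other mesenchymal cell. The labels give neither the age nor the number of animals behind a library, nor whether both libraries of 1 group had different hosts. The p-values therefore measure the spread between these libraries, which may be technical.

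Glycolysis turns glucose into pyruvate in the cytosol. Glucose enters through GLUT transporters, is trapped by hexokinase, is committed by phosphofructokinase and, after pyruvate kinase, is either burned in mitochondria or reduced to lactate, which leaves through monocarboxylate transporters. In low oxygen the transcription factor subunits HIF-1alpha and HIF-2alpha escape the prolyl hydroxylases that mark them for destruction, pair with ARNT and bind a short core sequence beside glycolytic genes and other targets. Fibroblasts in tumours are known to take up glucose and to release lactate.

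Values are the authors' normalised levels, read as log2, so a difference of 1 is taken as a doubling. Their transformation is not stated, so folds and linear sums hold only on that reading. SE is the standard error of a change. Each gene was tested with limma across all 14548 genes, and adjusted p-values are Benjamini-Hochberg values over all of them. In that test 41 genes (0.282%) passed an adjusted p of 0.05, 19 lower in GSK (0.131%) and 22 higher (0.151%).

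Of the 34 genes, 1 passed this test. Slc16a1, which encodes the lactate and pyruvate transporter MCT1, was 1.43-fold lower in fibroblasts from GSK tumours. Hk2, the inducible hexokinase, was next with a value 1.31-fold lower that missed the threshold (adjusted p = 0.0564), followed by Ndrg1, a hypoxia-induced gene, at -0.36 (log2) and Hif1a at -0.26, which also missed it. By the listed value of each gene alone, the enzymes of the glycolytic chain itself, from Gpi1 to Ldha, had changes of about 0.10 or less in size (log2). None of them passed. Summed with its processed pseudogenes, copies described below, Eno1 was at -0.15. The members' estimates were mostly negative: 28 of 34 lay below 0, against 50.5% of all tested genes, with a median of -0.05 against -0.00 for all tested genes. Leaving out DMSO library 1 removed most of that lean, with 19 of 34 below 0 and a median of -0.01.

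Promoter sequence is shown for 4 genes with negative estimates (Slc16a1, Hk2, Hif1a and Ero1l) and for a pair of textbook HIF targets with changes near 0 (Ldha and Pgk1), so that the shared core motif can be seen beside unequal changes. Each line gives the 250 bases before the RefSeq start of transcription, on build GRCm38.p6, written 5′ to 3′ in the direction of transcription. For Ldha, which has 2 windows, the upstream one is shown. Capitals mark the HIF core, searched as ACGTG or GCGTG on both strands (CACGT or CACGC on the other), where CACGTG counts as an overlapping match on each strand.
Slc16a1, chr3:104638414-104638663, plus strand: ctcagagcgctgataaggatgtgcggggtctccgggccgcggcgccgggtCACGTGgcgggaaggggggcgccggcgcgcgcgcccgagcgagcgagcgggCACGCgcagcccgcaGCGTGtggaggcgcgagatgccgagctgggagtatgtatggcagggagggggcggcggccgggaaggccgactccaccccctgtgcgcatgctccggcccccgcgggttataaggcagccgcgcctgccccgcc
Hk2, chr6:82774455-82774704, minus strand: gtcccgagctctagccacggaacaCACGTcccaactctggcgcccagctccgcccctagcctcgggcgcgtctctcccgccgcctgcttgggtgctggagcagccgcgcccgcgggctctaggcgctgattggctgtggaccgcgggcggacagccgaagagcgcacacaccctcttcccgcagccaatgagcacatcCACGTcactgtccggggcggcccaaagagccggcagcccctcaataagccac
Hif1a, chr12:73907617-73907866, plus strand: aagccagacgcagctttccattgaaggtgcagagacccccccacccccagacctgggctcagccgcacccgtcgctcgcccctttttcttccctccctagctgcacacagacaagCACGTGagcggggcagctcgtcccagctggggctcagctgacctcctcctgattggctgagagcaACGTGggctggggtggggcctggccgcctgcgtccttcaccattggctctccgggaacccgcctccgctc
Ero1l, chr14:45318573-45318822, minus strand: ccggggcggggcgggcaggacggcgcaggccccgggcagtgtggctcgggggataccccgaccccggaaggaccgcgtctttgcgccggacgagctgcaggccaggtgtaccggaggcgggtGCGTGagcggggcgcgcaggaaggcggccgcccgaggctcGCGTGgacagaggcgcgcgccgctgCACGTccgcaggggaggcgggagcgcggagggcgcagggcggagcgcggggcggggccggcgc
Ldha, chr7:46845554-46845803, plus strand: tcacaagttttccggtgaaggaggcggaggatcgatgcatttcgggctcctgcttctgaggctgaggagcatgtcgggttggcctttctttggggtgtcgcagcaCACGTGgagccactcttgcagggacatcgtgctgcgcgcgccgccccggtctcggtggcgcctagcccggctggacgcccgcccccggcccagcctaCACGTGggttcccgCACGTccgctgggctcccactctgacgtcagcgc
Pgk1, chrX:106186850-106187099, plus strand: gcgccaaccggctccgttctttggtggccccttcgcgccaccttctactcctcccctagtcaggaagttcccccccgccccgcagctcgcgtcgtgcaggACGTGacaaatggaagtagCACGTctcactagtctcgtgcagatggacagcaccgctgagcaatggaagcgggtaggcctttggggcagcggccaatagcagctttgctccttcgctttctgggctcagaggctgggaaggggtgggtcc
The Slc16a1 window holds 4 matches, which begin 200, 199, 149 and 134 bases before the start. That of Hk2 holds 2 matches, Hif1a 3, Ero1l 3, Ldha 5 and Pgk1 2. Windows were found for 31 of the 34 genes, 46 windows in all since some genes have several starts, and 36 of the 46 (78.3%) held at least 1 match, against 38.6% of 32851 windows of the same length over all promoters. The stricter core ACGTG was in 21 of 46 windows (45.7%), against 16.6% of all windows. The base composition of the windows was not matched, and a match is a string of letters and not a measured binding site. The members were listed partly for their response to low oxygen, so the shares of windows are a description. Slc16a1 at -0.52 and Pgk1 at 0.01, a value made uncertain by its copies, both hold ACGTG. Whether the motif goes with the change was not tested.

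Glucose uptake is carried by Slc2a1 (GLUT1), the basal transporter of most cells, and by Slc2a3 (GLUT3), a high-affinity form. Slc2a1 stood at 12.27 and 12.29 in DMSO libraries 1 and 2 and at 12.19 and 12.08 in GSK libraries 1 and 2. Slc2a3 stood at 9.96 and 10.08 in DMSO and at 9.89 and 9.90 in GSK. Both GSK libraries lay below both DMSO libraries for each transporter, by little: Slc2a1 was at -0.15 ± 0.06 (SE, limma adjusted p = 0.26) and Slc2a3 at -0.13 ± 0.05 (adjusted p = 0.318). Slc2a1 was at -0.09 without GSK library 2, and Slc2a3 at -0.07 without DMSO library 2.

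The hexokinases phosphorylate glucose and keep it in the cell. Hk2 (ENSMUSG00000000628, GRCm38 chromosome 6, 82725025 to 82774454, minus strand) stood at 12.39 and 12.35 in DMSO and at 12.04 and 11.93 in GSK. The groups did not overlap, and the gap between them was larger than the spread within either. The change was -0.39 ± 0.05 (SE, 95% interval -0.52 to -0.26, limma adjusted p = 0.0564), and it lay between -0.44 and -0.34 when any 1 library was left out. With a robust variance prior, an alternative added after seeing the data, Hk2 passed (adjusted p = 0.0461). Hk1, the constitutive form, stood at 11.62 and 11.59 in DMSO and at 11.61 and 11.56 in GSK, with a change of -0.02 (95% interval -0.13 to 0.08) whose sign turned after quantile normalisation. Per kilobase of transcript, Hk2 lay above Hk1 in both DMSO libraries, by 0.25 and 0.24 (log2), and below it in both GSK libraries, at -0.09 and -0.15. With the longest coding transcript of Hk1 in place of the principal one, Hk2 lay above Hk1 in all 4 libraries, by 0.40 and 0.40 in DMSO and by 0.06 and 0.0062 in GSK, so the crossing depended on the transcript length used.

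**Figure D1:**
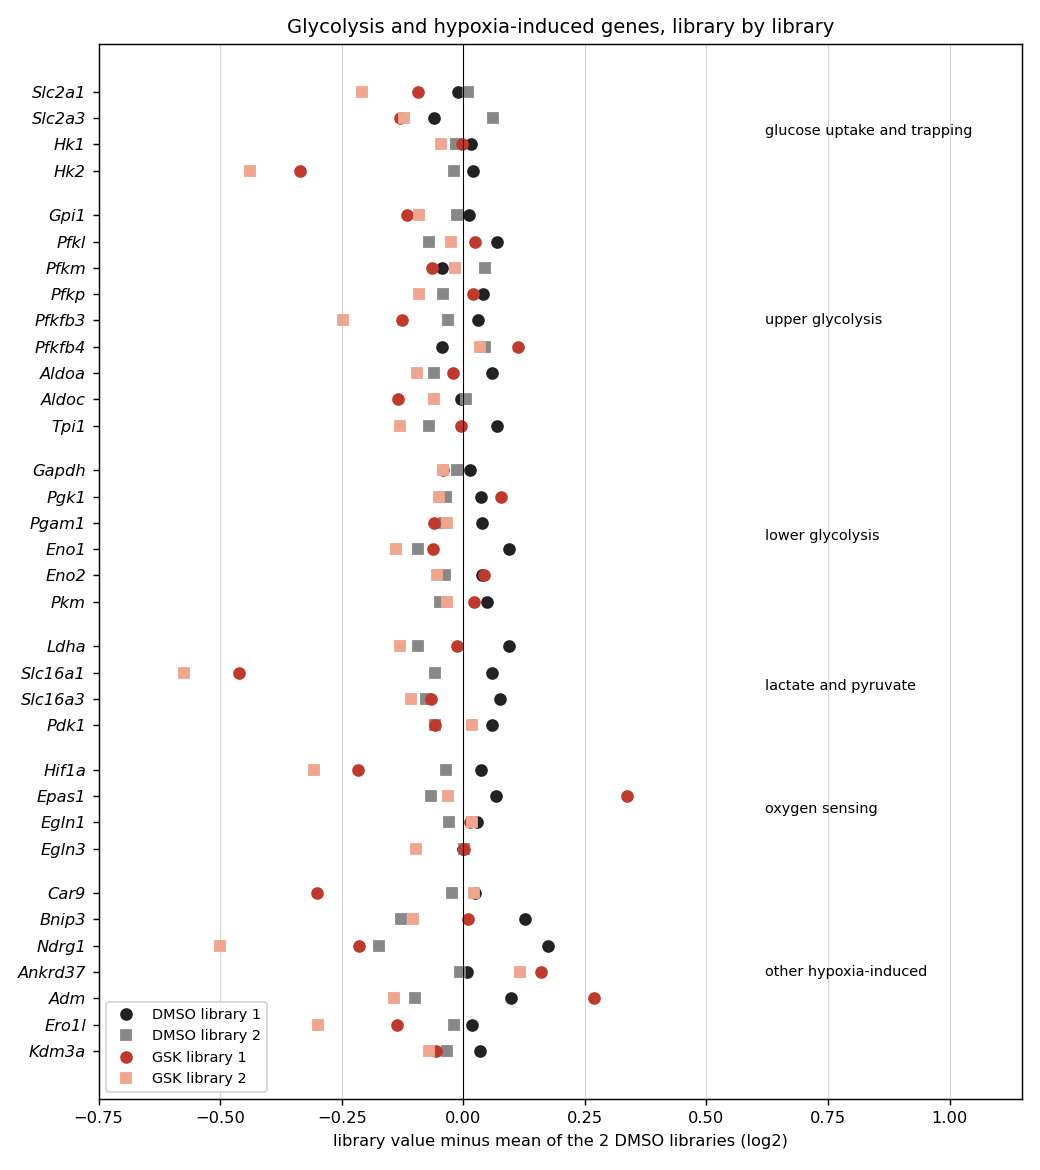
Value of each of the 34 genes in each library, as the difference from the mean of the 2 DMSO libraries (x axis, log2), ordered by role (y axis); circles are library 1 and squares library 2 of a group, with DMSO in black and grey and GSK in red and pale red. Slc16a1, Hk2, Hif1a, Ndrg1 and Ero1l have both GSK libraries to the left of both DMSO libraries, and most enzymes of the chain lie within 0.2 of 0 in all 4 libraries.

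In upper glycolysis, none of 9 genes passed the test and 8 of 9 had negative estimates. Phosphofructokinase, the committed step, is made from 3 genes. Pfkl, the liver type, stood at 12.17 and 12.03 in DMSO and at 12.12 and 12.07 in GSK, so the GSK libraries lay between the DMSO libraries; its estimate of -0.00 was 0.03 after quantile normalisation. Pfkp, the platelet type, was at -0.04 (95% interval -0.18 to 0.10) and Pfkm, the muscle type, at -0.04 (-0.16 to 0.08). Pfkp is uncertain, because 748 bases of its transcript overlap Pitrm1 on the opposite strand, at 10.67 to 10.84 in the libraries, and whether counting used strand is not given in the sources used here.

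Pfkfb3 and Pfkfb4 encode the bifunctional enzymes that set the level of fructose 2,6-bisphosphate, the activator of phosphofructokinase. Pfkfb3 stood at 10.45 and 10.39 in DMSO and at 10.30 and 10.17 in GSK, a change of -0.19 ± 0.06 (SE, limma adjusted p = 0.187). Pfkfb4 stood at 10.38 and 10.46 in DMSO and at 10.53 and 10.46 in GSK, a change of 0.07 ± 0.05 (adjusted p = 0.534). The GSK libraries were lower for Pfkfb3, without overlap, while for Pfkfb4 the ranges met. Per kilobase, Pfkfb4 exceeded Pfkfb3 by 0.33 and 0.48 in DMSO and by 0.65 and 0.69 in GSK, and the difference between the 2 genes' changes was 0.26.

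The remaining upper enzymes are the isomerase Gpi1, the aldolases Aldoa and Aldoc, and triose phosphate isomerase, Tpi1. Gpi1 stood at 13.07 and 13.04 in DMSO and at 12.94 and 12.96 in GSK, without overlap, a change of -0.10 (95% interval -0.22 to 0.01). Aldoc, the brain-type aldolase, was at -0.10, also without overlap, from a level of 6.49 and 6.50 in DMSO. Aldoa was at -0.06 and Tpi1 at -0.07, and the groups overlapped for both. Both turned to 0.00 without DMSO library 1.

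Lower glycolysis showed no change past the test in any of 6 genes. The groups overlapped for 5 of them, and for 7474 of all 14548 tested genes. Pkm, pyruvate kinase, stood at 15.22 and 15.12 in DMSO and at 15.19 and 15.14 in GSK, with a change of -0.01 (95% interval -0.19 to 0.17). Pgam1, phosphoglycerate mutase, was at -0.05 (-0.18 to 0.09), and Eno2, the neuronal-type enolase, at -0.01 (-0.14 to 0.12). These intervals leave room for changes of up to about 0.2 either way, so equal expression is not shown.

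For Gapdh, Pgk1 and Eno1 the listed value is uncertain, because the genome holds processed pseudogenes, copies made from reverse-transcribed mRNA, that share their sequence, and the table lists large values under those copies. Of the 34 genes, 10 had at least 1 annotated processed pseudogene matching at 90% identity or more over 200 bases, 190 in all, of which 139 have a row in the table. Gapdh had 152 and Ldha 12, and no other member had 10 or more. Pseudogenes of Gapdh took 63.0% of the sum of gene and pseudogenes on the linear scale (62.1% to 64.0% over the 4 libraries). Those of Eno1 took 39.0%, those of Pgk1 34.6% and that of Gpi1 2.92%. For each other member the share was under 1%, for Ldha 0.0267%, so that many copies did not go with a large listed share there.

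Gapdh, glyceraldehyde phosphate dehydrogenase and a common reference gene, stood at 12.63 and 12.61 in DMSO and at 12.58 and 12.58 in GSK. Its copy Gm13394 on chromosome 2 (28933610 to 28934609), 99.9% identical over 1000 bases, was listed higher than Gapdh itself, at 13.37 and 13.28 in DMSO and 13.18 and 13.22 in GSK. Summed with all its listed pseudogenes, Gapdh was at -0.09, against -0.04 alone, and the latter was above 0 after quantile normalisation. Pgk1, phosphoglycerate kinase, was at 13.40 and 13.33 in DMSO and 13.44 and 13.31 in GSK. Its change was 0.01 alone and -0.04 summed, so its sign depended on the copies Pgk1-rs7 and Gm5537, which match it at 100% identity over 1255 and 1252 bases.

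Eno1, the widespread enolase, stood at 13.56 and 13.37 in DMSO and at 13.40 and 13.33 in GSK, a change of -0.10 alone. The change was -0.0072 without DMSO library 1 and -0.19 without DMSO library 2. Its processed pseudogene Gm4735 (chromosome 2, 80837141 to 80838442, 99.6% identical over 1302 bases) was listed at 12.97 and 12.80 in DMSO and 12.70 and 12.61 in GSK. A near-identical gene, Eno1b, was listed at 13.61 and 13.50 in DMSO and 13.45 and 13.40 in GSK, above Eno1 in every library. Eno1 held 37.1% of the sum over the 3 genes, and that sum was at -0.14. How reads were divided among these copies cannot be read from the table.

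**Figure D2:**
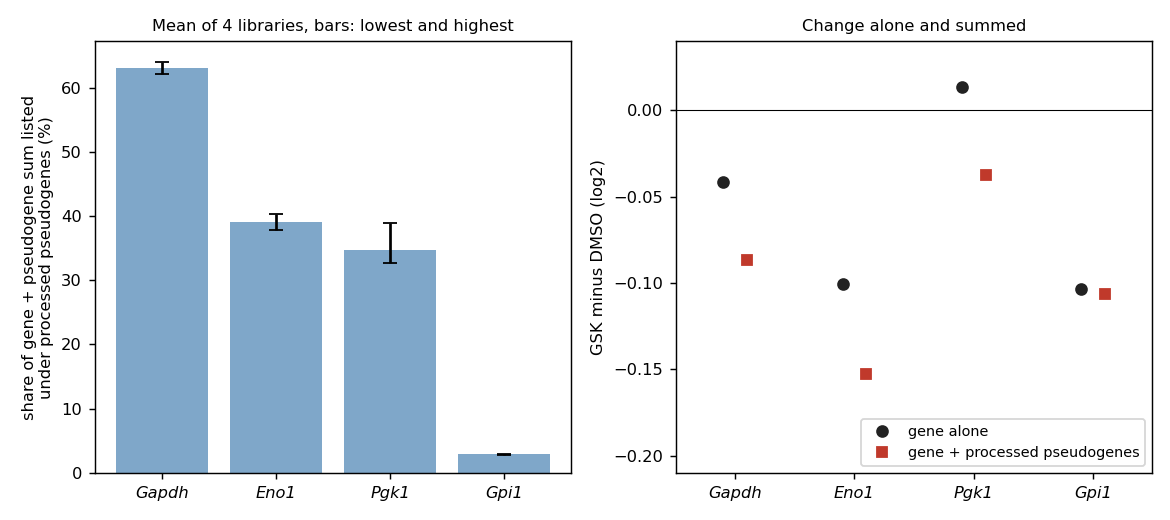
Left, share of the linear sum of gene and processed pseudogenes that is listed under the pseudogenes (y axis, percent), as the mean of the 4 libraries with bars from the lowest to the highest library, for the 4 genes where it exceeded 1%. Right, GSK minus DMSO (y axis, log2) for the gene alone (circles) and summed (squares): Pgk1 moves from 0.01 to -0.04 and Gapdh from -0.04 to -0.09.

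Pyruvate and lactate are handled by Ldha, which reduces pyruvate, by the transporters Slc16a1 (MCT1) and Slc16a3 (MCT4, the export form of glycolytic cells), and by Pdk1, the kinase that holds pyruvate back from being burned in mitochondria. Slc16a1 (ENSMUSG00000032902, chromosome 3, 104638668 to 104658462, plus strand) stood at 11.57 and 11.45 in DMSO and at 11.05 and 10.94 in GSK. Both GSK libraries lay about 0.4 or more below both DMSO libraries, and the libraries of a group differed by less than 0.13. The change was -0.52 ± 0.06 (SE, 95% interval -0.67 to -0.37, limma adjusted p = 0.0474). It was the only member past the threshold, rank 39 of the 41 genes called. The call ended without DMSO library 1 (change -0.46, adjusted p = 0.14), without GSK library 2 (-0.46, 0.0871), when all genes were tested unfiltered (0.222), at a stricter minimum mean of 50 (0.0524), under quantile normalisation (0.0634) and with a variance prior without trend (0.0763). The direction held in each of these, and the change stayed between -0.58 and -0.46 when any 1 library was left out.

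The other lactate genes did not pass. Slc16a3 stood at 12.79 and 12.64 in DMSO and at 12.65 and 12.60 in GSK, a change of -0.09 (95% interval -0.24 to 0.07) with overlapping groups, and of -0.01 without DMSO library 1. Ldha stood at 14.25 and 14.06 in DMSO and at 14.14 and 14.02 in GSK, at -0.07 (-0.28 to 0.13), and was at 0.02 without DMSO library 1. Pdk1 was at -0.02 (-0.16 to 0.12). Per kilobase, Slc16a3 exceeded Slc16a1 2.35-fold in DMSO and 3.17-fold in GSK, with log2 differences of 1.25 and 1.21 in the DMSO libraries and 1.63 and 1.70 in the GSK libraries. The balance of the 2 transporters was thus apart between the groups in these 4 libraries, a difference of 0.43 that was not tested by itself.

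Oxygen sensing rests on the HIF alpha subunits and on the prolyl hydroxylases Egln1 and Egln3. Hif1a (chromosome 12, 73901375 to 73947530) stood at 13.24 and 13.17 in DMSO and at 12.99 and 12.89 in GSK, a change of -0.26 ± 0.06 (SE, 95% interval -0.40 to -0.12, limma adjusted p = 0.115). Both GSK libraries were below both DMSO libraries. Epas1, which encodes HIF-2alpha, stood at 13.14 and 13.01 in DMSO and at 13.41 and 13.04 in GSK. Its estimate of 0.15 rested on GSK library 1, without which it was -0.03. Per kilobase, Hif1a lay above Epas1 by 0.32 and 0.38 in the DMSO libraries and stood at -0.20 and 0.07 relative to it in the GSK libraries.

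Egln1 and Egln3 differed little. Egln1, the main oxygen sensor of most cells, stood at 11.82 and 11.76 in DMSO and at 11.80 and 11.81 in GSK (95% interval of the change -0.09 to 0.13). Egln3, itself induced by HIF, was at 9.73 in both DMSO libraries and in GSK library 1 and at 9.63 in GSK library 2. HIF-1alpha is controlled mainly at the protein level, which RNA does not measure.

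Of the 7 other hypoxia-induced genes, 5 had negative and 2 positive estimates, with a median of -0.06, and none passed. Ndrg1, a stress-response gene used as a hypoxia marker, stood at 13.57 and 13.22 in DMSO and at 13.18 and 12.90 in GSK (change -0.36 ± 0.14 SE, limma adjusted p = 0.28). GSK library 1 nearly met DMSO library 2, and the change was -0.18 without DMSO library 1 and -0.53 without DMSO library 2. Ero1l, an oxidase of protein folding in the endoplasmic reticulum, stood at 12.15 and 12.12 in DMSO and at 12.00 and 11.84 in GSK (-0.22 ± 0.06, adjusted p = 0.182), without overlap, and was at -0.14 without GSK library 2. Kdm3a, a histone demethylase, was at -0.06, also without overlap.

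Ankrd37, an ankyrin repeat gene induced by HIF-1, was the only member with both GSK libraries above both DMSO libraries. It stood at 6.69 and 6.67 in DMSO and at 6.84 and 6.80 in GSK, a change of 0.14 ± 0.04 (SE, limma adjusted p = 0.2). Car9, the carbonic anhydrase widely used as a hypoxia marker, stood at 8.46 and 8.41 in DMSO and at 8.14 and 8.46 in GSK, so that GSK library 1 alone was low, and without it the change was 0.02. Adm, which encodes the vasodilator adrenomedullin, stood at 10.86 and 10.66 in DMSO and at 11.03 and 10.62 in GSK, where the GSK libraries were the highest and the lowest. Bnip3, a mitophagy receptor, was at -0.05 (95% interval -0.27 to 0.17).

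**Figure D3:**
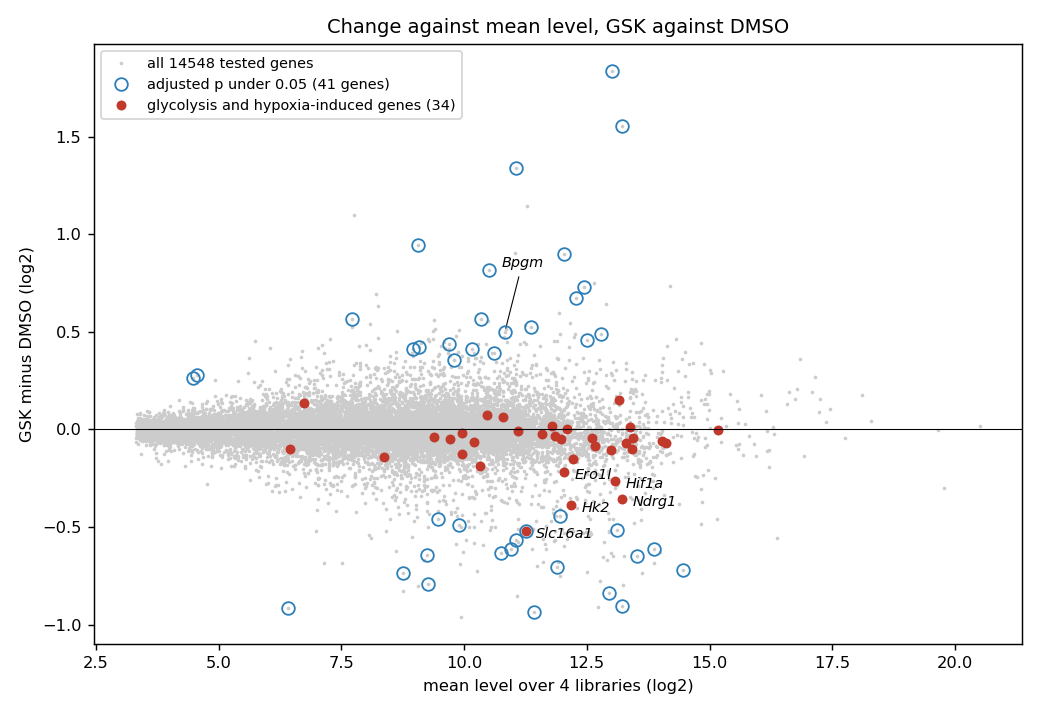
GSK minus DMSO (y axis, log2) against the mean level over the 4 libraries (x axis, log2) for the 14548 tested genes (grey), with the 41 called genes ringed in blue and the 34 glycolysis and hypoxia-induced genes in red. Slc16a1 at -0.52 is the only red point with a ring, and Bpgm, a neighbouring enzyme outside the 34, is ringed at 0.50.

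Counted over all members, 12 of 34 had both GSK libraries below both DMSO libraries (35.3%), against 24.5% of all tested genes, and 1 of 34 had both above, against 24.1%. The groups overlapped for 21 of the 34 members and for 7474 of the 14548 tested genes. In either direction the share of all tested genes without overlap was 48.6%. At an unadjusted p under 0.05 there were 7 lower and 1 higher, 23.5% of the members against 16.0% of all genes. In the lower direction the background share at that p was 8.13% and in the higher direction 7.88%. The counts are a description, since the members were chosen with earlier results of these data known. For 27 of the 34 the change moved by over 1.5 times when some 1 library was left out, and the other 7 were Slc16a1, Hk2, Hif1a, Pfkfb3, Gpi1, Gapdh and Ankrd37.

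The members also differed between the libraries of a group. In DMSO, library 1 was above library 2 for 28 of 34 members (50.4% of all tested genes). In GSK the same held for 25 of 34 (50.5%), and for 22 of 34 it held in both groups (30.9%). The median member was 0.07 higher in library 1 than in library 2 in DMSO and 0.08 higher in GSK, which is larger than the median change of -0.05 between the groups. Ndrg1, Bnip3, Ldha and Eno1 had gaps of 0.19 to 0.35 between the DMSO libraries, and Adm and Epas1 gaps of 0.41 and 0.37 between the GSK libraries. For most glycolytic enzymes the difference between the groups was therefore no larger than that between libraries of a group.

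Levels were compared between genes after division by the length of the principal transcript. On this log2 scale per kilobase, and with the listed value of each gene alone, Pkm was highest at 13.89, followed by Aldoa at 13.44 and Ldha at 13.30. Tpi1 and Pgam1 followed, both at 12.62, with overlapping libraries, then Pgk1 at 12.50, Eno1 at 12.40 and Gapdh at 12.09. The places of the last 3 depended on their copies. Summed with its pseudogenes, Gapdh reached 13.47 to 13.60 per kilobase, above Aldoa in every library, and Pgk1 reached 13.03 to 13.24, above Pgam1 in every library. Eno1 summed with Eno1b and its pseudogene reached 13.72 to 13.97, and overlapped Pkm. Aldoc was lowest at 4.97, so that Aldoa exceeded it 349-fold in DMSO and 359-fold in GSK. Slc2a1 exceeded Slc2a3 5.84-fold in DMSO and 5.74-fold in GSK, and Eno1 exceeded Eno2 7.06-fold and 6.61-fold, leaving out the copies of Eno1. Egln1 exceeded Egln3 3.08-fold and 3.22-fold, and Pfkl, Pfkp and Pfkm kept that order in each library. Of the 10 pairs of related genes compared, the order changed among the libraries for Hif1a and Epas1 with either length, and for Hk2 and Hk1 only with the length of the principal transcripts.

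**Figure D4:**
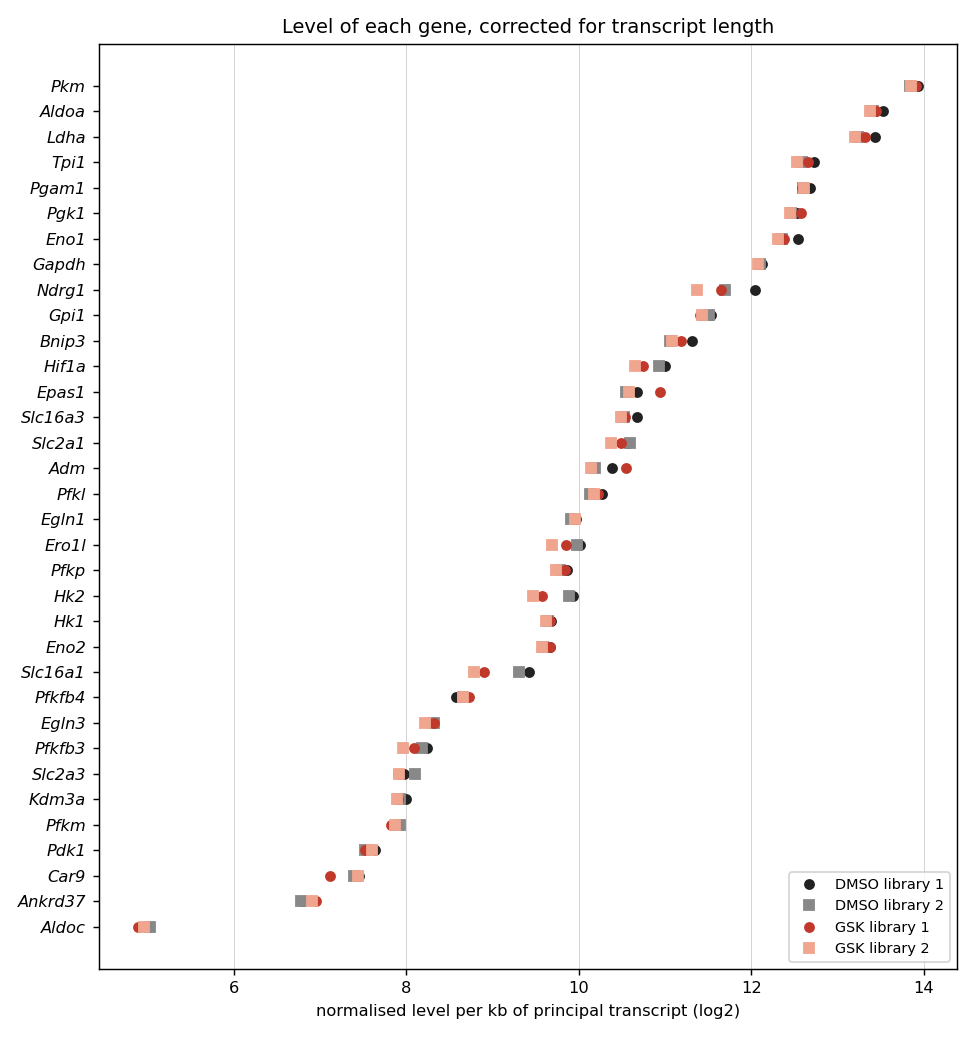
Level per kilobase of the principal transcript (x axis, log2) of the 34 genes in each library, ordered by their mean (y axis); circles are library 1 and squares library 2 of a group, with DMSO in black and grey and GSK in red and pale red. Pkm at 13.89 and Aldoc at 4.97 mark the ends, and the 4 libraries are spread most widely for Ndrg1 and Slc16a1.

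Further genes of the pathway came from 3 lists. Among 46 other genes of glucose metabolism, 39 were tested, 1 rose and none fell, with a median of -0.01. The gene that rose was Bpgm (chromosome 6, 34476207 to 34505613), which encodes the mutase that makes 2,3-bisphosphoglycerate beside the main chain. It stood at 10.54 and 10.62 in DMSO and at 11.04 and 11.12 in GSK, a 1.42-fold rise (0.50 ± 0.05 SE, limma adjusted p = 0.033). The groups were well apart, at 0.4 or more. That call ended without DMSO library 1 (0.46, adjusted p = 0.111), without GSK library 2 (0.46, 0.0659), with no filter (0.222), after quantile normalisation (0.0523) and without trend (0.0634), with the sign kept. G6pdx, the entry enzyme of the pentose phosphate pathway, was at -0.14 (adjusted p = 0.238), Pygl, a glycogen phosphorylase, at -0.22 (0.249, and -0.10 without DMSO library 1), and the transporter Slc2a12 at 0.11 (0.284). Slc2a12 shares 407 bases with Tbpl1 on the opposite strand and is uncertain.

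Among 29 other hypoxia-induced genes, all tested, 1 fell and none rose over all genes tested, with a median of -0.08 and 24 of 29 negative estimates (50.5% of all tested genes were negative). Angptl4, a secreted inhibitor of lipoprotein lipase, fell by 0.70 on the log2 scale, from 12.31 and 12.17 to 11.57 and 11.51 (limma adjusted p = 0.0251, and 0.0683 without DMSO library 1, 0.0516 without trend and 0.222 with no filter). Bhlhe40, a transcriptional repressor of the clock and of hypoxia, was at -0.32 (adjusted p = 0.0653), and Vegfa, the angiogenic factor, at -0.26 (0.101). At an unadjusted p under 0.05, there were 12 of these 29 genes (41.4%), 10 lower and 2 higher, against 16.0% of all tested genes, 8.13% lower and 7.88% higher. The list was chosen with earlier results of these data known, so its counts only describe the genes picked.

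In the HIF pathway, 14 of 15 further genes were tested and none passed. Vhl, which recruits the ligase that destroys HIF alpha, was at 0.16 (adjusted p = 0.259), Hif1an, the asparaginyl hydroxylase that blocks its activity, at 0.13 (0.196), and the hydroxylase Egln2 at 0.11 (0.332). Siah2, a ligase that acts on prolyl hydroxylases, was at -0.13 (0.237). For each of the first 3 both GSK libraries were above both DMSO libraries, and for Siah2 both were below. Such gaps were common: 24.1% of all tested genes had both GSK libraries above and 24.5% both below. Of the 14 genes of this list, 4 lay above and 3 below (21.4%), which is near those shares. Arnt, the partner of HIF alpha, was at -0.05.

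**Figure D5:**
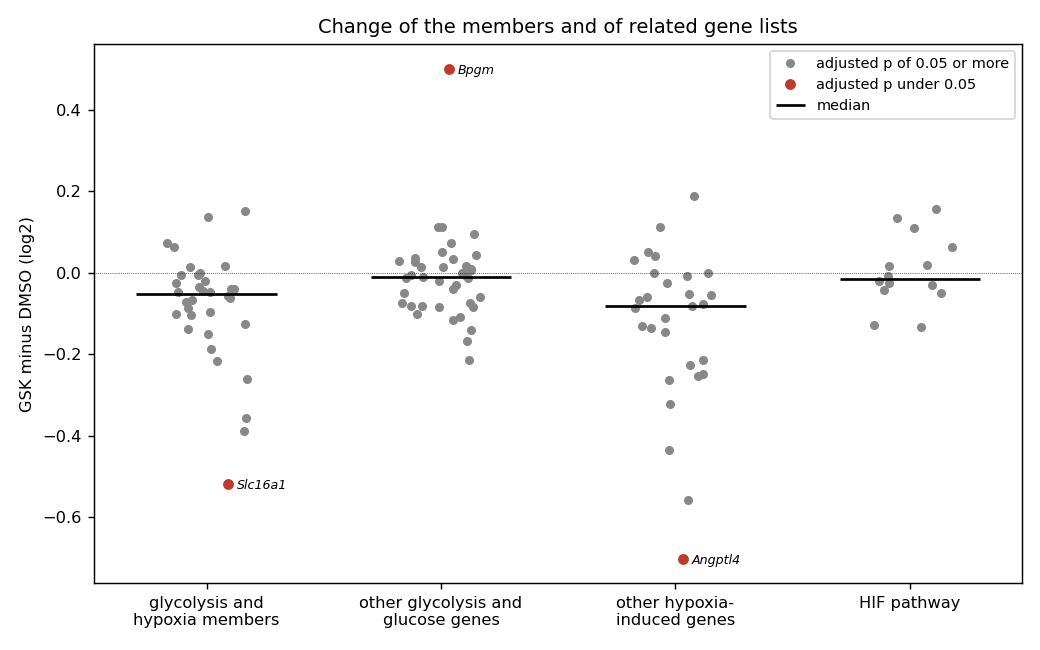
GSK minus DMSO (y axis, log2) of each tested gene in the 34 members and in 3 lists of related genes (x axis), with genes past an adjusted p of 0.05 in red and a line at each median. The medians lie at -0.05, -0.01, -0.08 and -0.01, and Slc16a1, Bpgm and Angptl4, the labelled genes, are the red points.

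The libraries carried fibroblast markers, 12 of 12 genes, at a mean of 15.34 to 15.37 in DMSO and 15.26 to 15.30 in GSK. Of these, 7 had negative and 5 positive estimates, with a median of -0.02. The genes of the antigens used for depletion were low, with Ptprc (CD45) at 3.81, Pecam1 (CD31) at 3.31 and Epcam (CD326) at 0.32. Other markers of those cells were higher, with the leukocyte genes Cd53 at 11.03, Cd3e at 8.62 and Csf1r at 8.28, the endothelial genes Flt1 at 10.84 and Tek at 7.64, and the epithelial genes Krt19 at 8.82 and Lcn2 at 6.98. The skeletal muscle marker Ckm, of a tissue rich in Pfkm and Aldoa, was at 0.60, and 8 of 12 muscle markers lay below the filter. The sums of some marker lists moved with the groups beside the results above. The 15 immediate early and dissociation stress genes all had negative estimates, 2 of them past the test, with a log2 sum of 17.94 to 18.04 in DMSO and 17.52 to 17.76 in GSK, and none at 0. Of 11 pericyte and smooth muscle genes, 9 had positive estimates (sum 15.79 to 16.05 in DMSO and 16.10 to 16.19 in GSK, none at 0). The highest of them was Acta2 at 14.91. The other 2 went the opposite way, each with both GSK libraries below both DMSO libraries. Kcnj8 went from 8.42 and 8.55 to 8.21 and 8.33, and Abcc9 from 10.40 and 10.49 to 10.27 and 10.39. Leukocyte genes, with 11 of 12 listed and 7 of these below the filter, summed to 11.05 to 11.31 and 11.52 to 12.07, mostly from Cd53, with Nkg7 below 0. Of the 4 tested, 2 had positive and 2 negative estimates, with a median of -0.02. The negative ones were Cd3e, from 8.997 and 8.550 to 8.546 and 8.405, and Csf1r, from 8.39 and 8.28 to 8.30 and 8.14. The 9 endothelial genes, 4 below the filter, summed to 10.85 to 10.86 and 11.09 to 11.48, mostly from Flt1. Of the 5 tested, 3 had positive and 2 negative estimates (Tek and Kdr), with a median of 0.02. Epithelial and 4T1 genes, with 8 of 10 listed and 4 of these below the filter, summed to 9.37 to 9.52 and 9.02 to 9.22, mostly from Krt19. The 8 Schwann and neural genes, 1 below the filter, summed to 12.08 to 12.20 and 12.28 to 12.49, mostly from Ncam1. Of the 7 tested, 4 had negative and 3 positive estimates, with a median of -0.01. Tubb3 went from 9.09 and 8.96 to 8.70 and 8.82. Adipocyte genes, with 4 of 8 listed and 2 of these below the filter, summed to 9.68 to 9.72 and 9.77 to 9.81. The part of all these marker lists in the values of Slc16a1, Hk2 and Hif1a was not tested. In a bulk library, fewer cells of a type and less RNA per cell cannot be told apart.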

How the data were processed

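RNA of 4 libraries was analysed, 2 from the DMSO and 2 from the GSK group. The authors deposited 1 table of normalised values with 22456 Ensembl genes, read here as log2. DESeq2 1.12.4, RSEM 1.2.29, Bowtie2 and the builds GRCh38 and mm10 are listed, without roles, per the submitters' processing notes. The depth is unknown, since read totals, the transformation, the annotation release and the use of strand are not given in the sources used here. Low genes varied less (median range over libraries 0.0178 below the filter, 0.113 above), so changes of low genes may be understated, which was not tested. Symbols and coordinates came from GENCODE M21 (GRCm38), with 22357 identifiers matched; Ero1l was matched to Ero1a in RefSeq for its promoter.

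Limma 3.58.1 in R 4.3.3 was fitted to these log2 values as the authors deposited them, without a pseudocount, on genes whose mean reached log2 of 10, with the group as the only term and a variance prior that follows the mean; tests were two-sided. The same code was tested on simulated data. With 2 libraries a group, no exact permutation test over samples can go below 0.333. Principal transcripts were aligned to all transcripts with blastn 2.17.0, and pseudogene sums add values on the linear scale. Alternatives were other filters, quantile normalisation, no trend, a block for the replicate number, leaving out any 1 library and pseudogene sums; a robust prior and leaving out genes with 10 or more pseudogenes were added after seeing the data. Every member was named, and of each related list the 4 genes with the smallest p and each gene past the threshold; 1 gene named by this rule is not reported here, and Arnt was chosen after its value was seen. The members and lists were chosen with earlier results of these data known.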

Additional observations from a re-analysis of the deposited data

How the results depend on the processing

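Over all genes, 41 calls became 1 with no filter, 23 after quantile normalisation, 11 with a variance prior without trend, 138 with a robust prior and 7 to 194 when 1 library was left out (7 without DMSO library 1, 194 without DMSO library 2). Of the 34 members, the 1 call became 0 when unfiltered, at a minimum mean of 50, under quantile normalisation and without trend, 2 with a robust prior (Slc16a1 and Hk2), and 0 to 1 when 1 library was left out. The members' median ranged from -0.0918 to -0.00807 over libraries left out. With the replicate number as a block, 1374 genes and 6 members were called (Slc16a1, Hk2, Ndrg1, Hif1a, Ero1l and Pfkfb3). The labels do not say whether equal numbers pair a DMSO with a GSK library, so the block was kept as an alternative. The differences of library 1 from library 2 in DMSO and in GSK correlated at 0.428 across genes. A block leaves 1 more term to estimate from 4 libraries, so its calls rest on fewer residual degrees of freedom; the cause of the rise in calls was not tested.

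Signs turned for the following members, and the cause was not tested. Over the 4 fits with 1 library left out, the changes ranged from -0.0701 to 0.0698 for Pfkl, -0.0839 to 0.00409 for Pfkm, -0.0917 to 0.0199 for Pfkp, -0.117 to 0.00224 for Aldoa, -0.137 to 0.00270 for Tpi1, -0.0505 to 0.0774 for Pgk1, -0.0550 to 0.0420 for Eno2 and -0.0541 to 0.0433 for Pkm. They ranged from -0.166 to 0.0220 for Ldha, -0.0779 to 0.0383 for Pdk1, -0.0313 to 0.336 for Epas1, -0.0128 to 0.0446 for Egln1, -0.0976 to 0.00180 for Egln3, -0.301 to 0.0222 for Car9, -0.175 to 0.0794 for Bnip3 and -0.142 to 0.269 for Adm. Quantile normalisation turned Hk1 to 0.000238, Pfkl to 0.0269 and Gapdh to 0.00707, and the pseudogene sum turned Pgk1 to -0.0372. Slc16a1, Hk2, Hif1a, Ndrg1, Ero1l and Pfkfb3 kept their sign under every alternative run. So did Slc2a1, Slc2a3, Gpi1, Aldoc, Pgam1, Eno1, Slc16a3 and Kdm3a, with negative estimates, and Pfkfb4 and Ankrd37, with positive ones. The depth is unknown and the number of libraries limits the precision.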
